A study of Mus musculus with 8 samples.

Results

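Microglia sorted for low surface CD11c from cuprizone-fed control mice were compared, across all genes, with microglia of control mice on a normal diet. The members were the genes of the deposited table whose mean over 1 PRMT1FL CPZ CD11c low library and 3 PRMT1FL normal diet libraries was at least 10 normalised reads. This held for 11395 of 25239 genes. Of the other 13844 genes, 8367 had 0 reads in all 4 libraries. A normalised read count is a library's reads on a gene multiplied by 1 factor per library, set by the authors so that the 4 libraries share a total. The means just inside and just outside the filter were 10.0025 and 9.995.

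The PRMT1FL CPZ CD11c low library came from C57BL/6 mice with both Prmt1 alleles floxed and no Cre, spelled PRMT1Ifl/fl in the labels, that were fed 0.2% cuprizone, with an age labelled as 4 to 6 weeks and a time of 5 weeks. The PRMT1FL normal diet libraries came from mice of the same genotype, with the same labelled age and a time given as 11 weeks. The study's methods place a tamoxifen injection at about that age and the start of the CPZ diet after it, for floxed control mice too, so labels and methods differ on when the diet began. Whether the normal-diet mice were injected is not given in the sources used here. Neither group carries Cre. In both groups brains were digested, myelin was taken off on a density gradient and CD11b+/CD45inter cells were sorted, but the labels name a CD11c gate for the CPZ cells only. Diet, CD11c gate and the labelled time therefore cannot be told apart. Nothing says whether the 3 normal-diet libraries came from separate mice, so p-values measure only the spread between these libraries, which may be technical.

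Microglia are the resident macrophages of the brain. In the healthy brain they are maintained by signals through Csf1r and Tgfbr1 and express a set of genes such as P2ry12 and Tmem119 that is often called homeostatic. Cuprizone is a copper chelator that kills mature oligodendrocytes, and the microglia that gather at the lesions engulf myelin, load with its cholesterol and take on a disease-associated programme of secreted factors, scavenger receptors and lipid genes. CD11c, the integrin alpha X encoded by Itgax, is the surface protein commonly used to sort the microglia that carry this programme, and the cells described here were those that stained low for it.

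The CPZ library held 3470119 reads on genes, and the normal-diet libraries 2484663, 2518240 and 3271829 reads. A read was found on 15795 genes in the CPZ library, against 14232 to 14862 genes on normal diet. The 50 genes with most reads took 3.65% of the reads in the CPZ library and 4.21% to 4.99% on normal diet. Cells of the microglial type were present in all libraries: Cx3cr1, the fractalkine receptor, had 2456 normalised reads in the CPZ library against 3471, 3500.3 and 2773 in normal-diet replicates 1, 2 and 3, and Sall1, a transcription factor that marks microglia among brain macrophages, had 2031 in the CPZ library against 3517, 3366 and 2791 on normal diet. Both lay below every normal-diet library and neither was called, and the log2 fold of Cx3cr1 was 0.05 after quantile normalisation. Prmt1 itself had 134 normalised reads in the CPZ library against 87.5, 95.6 and 99.6 on normal diet (log2 fold 0.50, adjusted p = 0.094, limma), and none of the 9 arginine methyltransferase genes tested was called.

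Differences were tested with limma on log2(normalised reads + 1), so a fold understates the change of a gene with few reads, and a gene was called at an adjusted p under 0.05 and an absolute log2 fold over 1. The lone CPZ library was assumed to vary like the normal-diet libraries. A single gene tested alone by permutation of the 4 libraries could not go below p = 0.25. Of all genes tested, 9.33% were called higher and 2.95% lower in the CPZ library, and the median log2 fold was 0.08. The filter counted the CPZ library, so 446 of the genes tested had a normal-diet mean under 10 and could enter only by being high in that library. Among the 10949 genes with a normal-diet mean of at least 10, 7.06% were called higher and 3.07% lower. Where the number of a list called higher differs among these genes, this is said with that list. The CPZ value lay outside the range of the 3 normal-diet values for 77.1% of all genes tested.

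**Figure D1:**
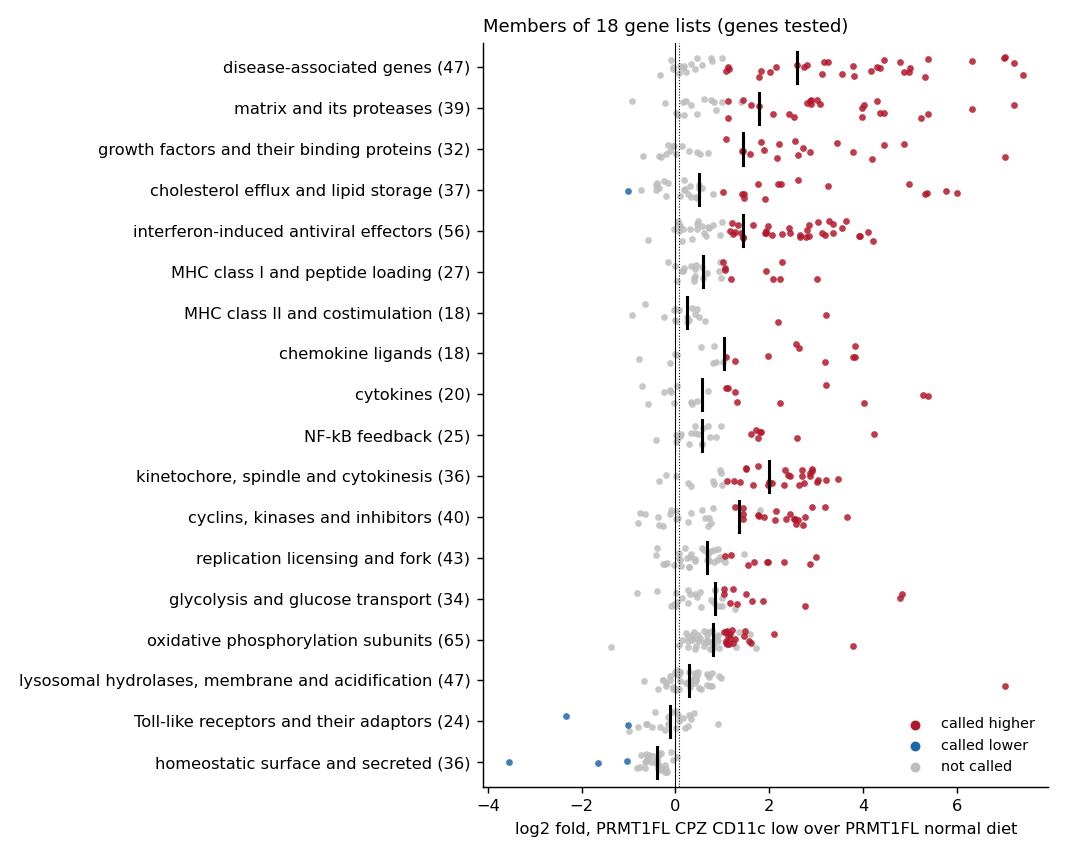
Log2 fold of PRMT1FL CPZ CD11c low over PRMT1FL normal diet (horizontal axis) for the tested members of 18 gene lists, 1 point a gene, red when called higher, blue when called lower and grey when not called. The black bar is the median of the list and the dotted line the median of all genes tested, 0.08. Disease-associated genes had a median of 2.59 and kinetochore genes 1.99, while 35 of the 36 homeostatic genes lay below 0.

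Several genes were almost silent on normal diet and well read after CPZ. Gpnmb, a glycoprotein of late lysosomes, had 513 normalised reads in the CPZ library against 2.36, 2.33 and 4.49 in normal-diet replicates 1, 2 and 3 (log2 fold 7.02 ± 0.57 SE, adjusted p = 1.1e-05, limma). Hpse, the heparanase that cuts heparan sulfate chains, had 299 in the CPZ library against 1.18, 0 and 2.69 on normal diet, and Baiap2l2, which bends membrane at cell protrusions, had 377 against 3.55, 4.66 and 0 on normal diet. None of these 3 genes had more than 5 normalised reads in any normal-diet library. Lgi2, a secreted leucine-rich repeat protein, had 259 reads in the CPZ library against 1 read over the 3 normal-diet libraries, a ratio of 618 per library total with a 95% counting interval of 109.9 to 24487. Tmem163, a zinc transporter, had 106 reads in the CPZ library against 1 on normal diet, a ratio of 253 (95% interval 44.4 to 10077). Such intervals cover counting error only. Pianp, a ligand of an inhibitory paired receptor, had 502 in the CPZ library against 9.45, 7 and 3.59 on normal diet, and Actr3b, a paralog of an Arp2/3 subunit, had 158 against 2.36, 3.5 and 1.79 on normal diet.

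Cspg4, the NG2 proteoglycan that is best known from pericytes and oligodendrocyte progenitors, and Bhlhe40, a basic helix-loop-helix repressor, combined large folds with many reads. Cspg4 had 1193 normalised reads in the CPZ library against 13, 17.5 and 11.7 on normal diet (log2 fold 6.33 ± 0.34 SE, adjusted p = 1.2e-06, limma). Bhlhe40 had 813 in the CPZ library against 7.09, 11.7 and 12.6 on normal diet (log2 fold 6.19 ± 0.41 SE, adjusted p = 3.8e-06). Bhlhe40 was 1 of 4 microglial transcription factors called higher among 37 tested, beside Runx2 (37.2 in the CPZ library against 3.54 ± 1.15 on normal diet, mean ± SD, n = 3), E2f1 (88 against 12.9 ± 4.13 on normal diet) and Batf (86.3 against 40.4 ± 6.75 on normal diet, not called without normal-diet replicate 2). The share of this list called higher, 10.8%, lay near the 9.33% of all genes tested, and Runx2 passed the filter only through the CPZ library. Mycl fell, with 72.8 in the CPZ library against 197 ± 63.8 on normal diet. Of the factors with most reads in the list, Sall1, Mef2a, Mef2c, Maf and Cebpa were not called. Maf, which sustains the mature macrophage state, had 1075 in the CPZ library against 1893, 1878 and 1689 on normal diet (log2 fold -0.76).

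**Figure D2:**
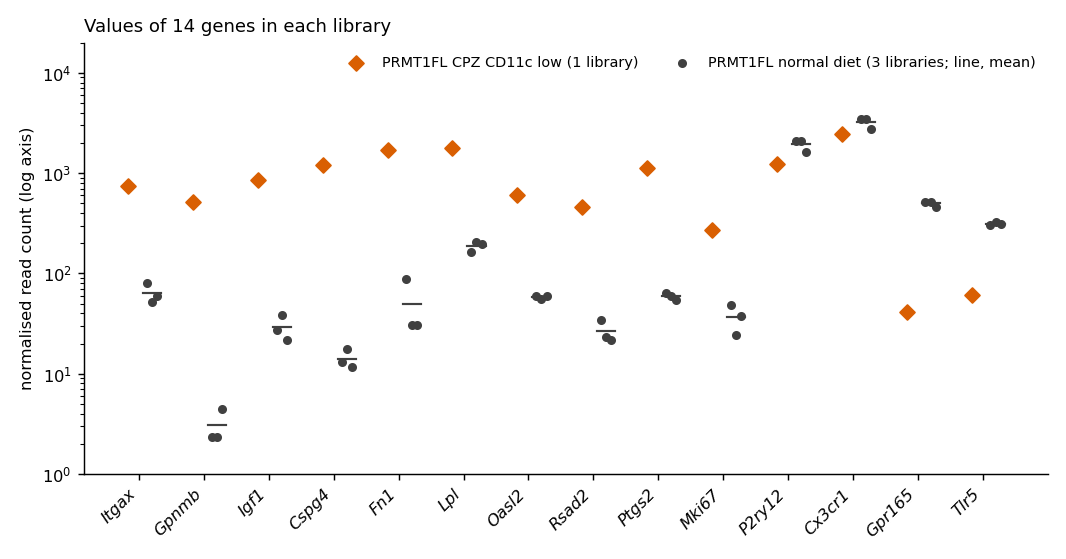
Normalised read count (vertical log axis) of 14 genes in each library, with the PRMT1FL CPZ CD11c low library as an orange diamond left of the 3 PRMT1FL normal diet libraries in grey and their mean as a line. The diamond lies above every grey point for Itgax to Mki67 and below every grey point for P2ry12, Cx3cr1, Gpr165 and Tlr5.

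Of 47 tested disease-associated genes, 31 were called higher and none lower, and 23 of 39 with a normal-diet mean of at least 10 were called higher. Itgax, which encodes the integrin the cells had been sorted to be low for, had 748 normalised reads in the CPZ library against 80.4, 52.5 and 59.2 on normal diet (log2 fold 3.55 ± 0.24 SE, adjusted p = 4.1e-06, limma). A transcript level in a gated library was thus above that of all 3 libraries without the gate. Csf1, the ligand of Csf1r, was among the 20 genes with most reads in the CPZ library, with 2237 against 695, 520.0 and 693 on normal diet. Rai14, an actin-binding ankyrin protein, had 438 in the CPZ library against 10.6, 13.99 and 13.5 on normal diet, and Mamdc2, a matrix protein, had 101 reads against 3 over the normal-diet libraries, a ratio of 80.3 (95% interval 26.7 to 396). The members with most reads on both diets were not called: Ctsb, the cathepsin B protease, had 2480.0 in the CPZ library against 2348, 2308 and 1993 on normal diet, and Hvcn1, the proton channel, had 1026 against 982, 873 and 849 on normal diet. Some listed genes stayed under the filter although the CPZ library stood out, such as Atp6v0d2, a proton pump subunit, with 38.9 in the CPZ library against 0, 0 and 0.9 on normal diet, and Fabp3, a fatty acid carrier, with 27.1 against 0 in all 3 normal-diet libraries. Both were chosen after their values were seen. Since this is bulk RNA, more cells of a kind and more RNA per cell cannot be told apart for any of these genes.

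Growth factors and their binding proteins rose in 18 of 32 tested genes and fell in none (12 of 26 with a normal-diet mean of at least 10). Igf1, the insulin-like growth factor that acts on oligodendrocyte progenitors, had 859 normalised reads in the CPZ library against 27.2, 38.5 and 21.5 on normal diet. Spp1, the secreted phosphoprotein osteopontin, had 715 in the CPZ library against 46.1, 25.6 and 26.9 on normal diet. Vegfa, which drives vessel growth, had 434 in the CPZ library against 30.7, 29.1 and 32.3 on normal diet, with a log2 fold of 3.78 ± 0.27 SE and an adjusted p of 5.4e-06 by limma. These 3 genes were more than 10 times their highest normal-diet value. The receptor for VEGF, Flt1, and the IGF-binding proteins Igfbp5 and Igfbp7 rose as well, with log2 folds of 4.19, 3.45 and 2.88, as did Lif, a cytokine of the interleukin-6 family (52.5 in the CPZ library against 7.18 ± 0.943 on normal diet). Grn, the precursor of the lysosomal granulins, had 1106 in the CPZ library against 1196, 1210.3 and 1057 on normal diet and was not called.

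Matrix genes and the enzymes that cut matrix rose in 24 of 39 tested genes (18 of 33 with a normal-diet mean of at least 10), and none fell. Fn1, fibronectin, had 1689 normalised reads in the CPZ library against 88.6, 30.3 and 30.5 on normal diet. Its normal-diet values were uneven, with replicate 1 well above the others, and the CPZ value lay far above all 3. Fam20c, a kinase of secreted proteins, had 702 in the CPZ library against 35.5, 24.5 and 42.2 on normal diet. Lgals3, the galectin that binds damaged endosomes and galactosides on the cell surface, had 283 in the CPZ library against 10.6, 12.8 and 17.9 on normal diet. Mmp12, the macrophage elastase, was read little (49.9 in the CPZ library against 0, 4.66 and 4.49 on normal diet). Sdc3, a heparan sulfate proteoglycan with many reads, had 2115 in the CPZ library against 707, 696 and 685 on normal diet (log2 fold 1.60 ± 0.11 SE, adjusted p = 4.1e-06, limma), and its normal-diet values were nearly equal. Timp2, an inhibitor of matrix metalloproteases, and Adam10, a sheddase, had log2 folds of 0.23 and -0.23 and were not called.

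Genes of cholesterol efflux and lipid storage were called higher in 15 of 37 (10 of 32 with a normal-diet mean of at least 10) and lower in 1. The 3 small apolipoprotein genes Apoc1, Apoc4 and Apoc2, which lie next to each other on chromosome 7 (GRCm38, chr7:19689480-19692659, chr7:19678084-19681460 and chr7:19671579-19677941), came on together. Apoc1 had 100 reads in the CPZ library against 3 over the normal-diet libraries, a ratio of 79.5 (95% interval 26.4 to 392), and Apoc2 had 98 against 3 on normal diet, a ratio of 77.9 (25.9 to 384). Apoc4 had 75 reads in the CPZ library and 0 in the normal-diet libraries, at least 59.6-fold higher when set against 3 reads over that group. The neighbour Apoe, which was looked up after these values were seen, had 792 normalised reads in the CPZ library against 648, 531 and 544 on normal diet and was not called (log2 fold 0.47).

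Lpl, the lipoprotein lipase, had 1792 normalised reads in the CPZ library against 163, 206 and 198 on normal diet (log2 fold 3.24 ± 0.15 SE, adjusted p = 3.3e-07, limma). Ch25h, which makes 25-hydroxycholesterol, had 445 in the CPZ library against 13, 5.83 and 13.5 on normal diet, and Plin2, the coat protein of lipid droplets, had 434 against 81.5, 75.8 and 118 on normal diet. Fabp5, a fatty acid carrier, and Dgat2, which makes triglyceride, rose with log2 folds of 4.99 and 2.61. The cholesterol exporters did not follow them past the threshold: Abca1 had 2208 in the CPZ library against 2172, 1704 and 1542 on normal diet, and Abcg1 had 1469.8 against 1060.0, 1023 and 906 on normal diet (log2 folds 0.30 and 0.56). Abca9 fell, with 718 in the CPZ library against 1539, 1476 and 1323 on normal diet, but was not called without normal-diet replicate 1 or 2. In sterol and fatty acid synthesis, 4 of 30 genes were called higher, among them Pmvk, a kinase of the mevalonate pathway (log2 fold 1.65), and Scd2 and Fasn, which desaturate and build fatty acids (1812 in the CPZ library against 786, 777 and 789.7 on normal diet for Scd2, and 491 against 238, 244 and 222 on normal diet for Fasn). None fell.

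The homeostatic list held 36 genes, all of them tested, and 3 were called lower while none was called higher. Gpr165, an orphan receptor, had 41.5 normalised reads in the CPZ library against 512, 520.0 and 464 on normal diet (log2 fold -3.55 ± 0.14 SE, adjusted p = 8.2e-08, limma). Upk1b, a tetraspanin, had 146 in the CPZ library against 477, 503 and 407 on normal diet, and Serpinf1, a secreted serpin, had 88 against 163, 195 and 187 on normal diet but was not called without normal-diet replicate 2. The other 33 did not pass, although 35 of the 36 folds were below 0, with a median of -0.40. P2ry12, the ADP receptor that guides microglial processes, had 1229 in the CPZ library against 2096, 2087 and 1632 on normal diet, and Tmem119 had 1235 against 1881, 1785 and 1508 on normal diet (log2 folds -0.65 and -0.48). Normal-diet replicate 3 was the lowest of the 3 normal-diet libraries for P2ry12, Tmem119, Cx3cr1, Csf1r and Sall1. Because duplicate reads were discarded by the study, single-end reads cannot pile up much beyond 1 per base, and these genes were read densely: the median of the list was 0.53 reads per base in the library where each was densest. Other genes were read as densely: the median was 0.57 for the immediate early genes, and 168 genes tested had over 0.5 reads per base in a library. The effect of this limit on the folds was not tested for any list.

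Interferon-induced antiviral effectors rose in 35 of 56 tested genes (28 of 49 with a normal-diet mean of at least 10), and none fell. Their median log2 fold was 1.45. These genes are switched on when interferon signalling brings the ISGF3 complex to interferon-stimulated response elements in their promoters. Oasl2, an oligoadenylate synthetase-like protein, had 606 normalised reads in the CPZ library against 59.1, 55.97 and 60.1 on normal diet (log2 fold 3.35 ± 0.20 SE, adjusted p = 1.9e-06, limma). Rsad2, the antiviral enzyme viperin, had 461 in the CPZ library against 34.3, 23.3 and 21.5 on normal diet, Isg15, the ubiquitin-like modifier, had 177 against 17.7, 11.7 and 20.6 on normal diet, and Zbp1, a sensor of Z-form nucleic acid, had 223 against 11.8, 10.5 and 20.6 on normal diet. No normal-diet library overlapped the CPZ library for these 4 genes. Oasl1, Oas3 and Ifi27l2a rose with log2 folds of 3.91, 3.64 and 3.54. Oas1g (4.20) shares sequence with other Oas1 copies, so its reads may be split between them. Of the members with most reads on normal diet, Lgals3bp rose with 1323 in the CPZ library against 645, 564 and 568 on normal diet, while Znfx1, Parp14 and Trim30a had log2 folds of 0.36, 0.46 and 0.57 and were not called.

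A core of the interferon-stimulated response element, GAAANNGAA, was searched on both strands (TTCNNTTTC on the other) in the RefSeq promoters of GRCm38.p6, from 250 bases before to 50 bases after the annotated start. It occurred in 25 of the 46 antiviral genes with a promoter in the table (54.3%), against 8.57% of all 27025 promoters and 7.3% of those of genes tested. The share was 16 of 27 among members called higher, 7 of 16 among those not called and 2 of 3 among those not tested. A match is a stretch of letters and not a shown binding site. Promoters of 4 genes that rose, Isg15, Ifit1, Slfn5 and Rsad2, are printed with that of Lgals9, a galectin whose reads did not pass the test, with the motif in capitals. Ifit1, which binds foreign RNA caps, had 135 normalised reads in the CPZ library against 17.7, 13.99 and 12.6 on normal diet, Slfn5, a Schlafen protein, had 916 against 134, 115 and 131 on normal diet, and Lgals9 had 454 against 409, 437 and 399 on normal diet. The genes whose promoters are printed were chosen after their values were seen. The sequences lie, on the strand of each gene, at chr4:156200769-156201068 (minus strand) for Isg15, chr19:34640639-34640938 (plus strand) for Ifit1, chr11:82951852-82952151 (plus strand) for Slfn5, chr12:26456403-26456702 (minus strand) for Rsad2 and chr11:78984875-78985174 (minus strand) for Lgals9.
Isg15: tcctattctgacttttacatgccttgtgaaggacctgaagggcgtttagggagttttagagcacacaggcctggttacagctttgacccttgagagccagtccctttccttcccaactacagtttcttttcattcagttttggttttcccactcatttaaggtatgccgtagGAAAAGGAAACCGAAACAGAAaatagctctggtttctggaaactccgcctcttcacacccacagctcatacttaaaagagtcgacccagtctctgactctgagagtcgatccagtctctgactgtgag
Ifit1: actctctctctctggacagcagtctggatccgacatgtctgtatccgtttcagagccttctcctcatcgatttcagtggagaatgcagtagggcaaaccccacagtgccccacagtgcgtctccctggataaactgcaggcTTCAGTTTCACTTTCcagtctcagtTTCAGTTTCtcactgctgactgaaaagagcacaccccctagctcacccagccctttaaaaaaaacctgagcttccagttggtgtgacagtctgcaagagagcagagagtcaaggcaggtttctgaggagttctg
Slfn5: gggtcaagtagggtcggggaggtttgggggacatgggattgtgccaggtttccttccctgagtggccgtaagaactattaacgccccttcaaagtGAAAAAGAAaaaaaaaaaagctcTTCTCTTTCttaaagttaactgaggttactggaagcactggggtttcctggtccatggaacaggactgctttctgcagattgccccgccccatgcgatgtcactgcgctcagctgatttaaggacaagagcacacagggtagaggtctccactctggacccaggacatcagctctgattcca
Rsad2: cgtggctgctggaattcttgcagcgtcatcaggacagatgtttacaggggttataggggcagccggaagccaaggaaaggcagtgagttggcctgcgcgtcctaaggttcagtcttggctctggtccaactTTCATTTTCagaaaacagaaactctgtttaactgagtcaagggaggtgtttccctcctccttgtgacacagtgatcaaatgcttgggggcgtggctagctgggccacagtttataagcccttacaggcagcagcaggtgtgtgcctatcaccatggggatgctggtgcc
Lgals9: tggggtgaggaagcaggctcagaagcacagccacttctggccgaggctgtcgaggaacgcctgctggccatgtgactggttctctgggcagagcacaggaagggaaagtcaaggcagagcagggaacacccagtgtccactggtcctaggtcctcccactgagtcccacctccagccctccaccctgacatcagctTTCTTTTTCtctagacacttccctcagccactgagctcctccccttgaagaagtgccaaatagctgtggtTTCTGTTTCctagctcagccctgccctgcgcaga
Isg15 and Ifit1 held 3 matches each, Slfn5 held 2, Rsad2 held 1 and Lgals9, which was not called, held 2.

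Upstream of these effectors, 11 of 39 genes of interferon signalling and nucleic acid sensing rose (9 of 37 with a normal-diet mean of at least 10) and none fell. Irf7, the factor that amplifies type I interferon, had 402 normalised reads in the CPZ library against 57.9, 41.98 and 55.6 on normal diet. Ikbke, a kinase that activates interferon regulatory factors, had 138 in the CPZ library against 4.73, 11.7 and 10.8 on normal diet. DNA sensors of the Ifi200 family rose as well, namely Ifi204, Ifi207, Ifi213 and Ifi211, with log2 folds of 2.77, 2.42, 2.75 and 3.14, but members of this family share sequence. Irf8, Irf5, Jak1 and Stat3, which were read abundantly on both diets, had log2 folds between -0.14 and 0.23 and were not called. Among 14 tested interferon-inducible GTPases, 5 rose (4 of 13 with a normal-diet mean of at least 10) and 1 fell. Iigp1 had 84.6 in the CPZ library against 15.4, 10.5 and 6.28 on normal diet and Gbp2 had 125 against 40.2, 34.98 and 47.6 on normal diet, while Gbp7 had 159.9 against 429, 483 and 452 on normal diet (log2 fold -1.50 ± 0.13 SE, adjusted p = 1.4e-05, limma). Without normal-diet replicate 2 the higher count of this list was 3, and without replicate 3 its lower count was 2.

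MHC class I genes and the machinery that loads peptide rose in 9 of 27 tested genes, all with a normal-diet mean of at least 10, and none fell. The median log2 fold of this list was 0.58. It was 0.31 with each library centred within classes of transcript length, where fewer members were called. Nlrc5, the transactivator of class I genes, had 322 normalised reads in the CPZ library against 55.5, 76.95 and 72.7 on normal diet. H2-Q7 and H2-Q6 rose with log2 folds of 3.02 and 2.27, but the Q-region genes are near copies of each other and their reads may be split. H2-M3, which lies outside that cluster, rose with a log2 fold of 1.06 but was not called without normal-diet replicate 2. The classical genes H2-K1 (942 in the CPZ library against 794, 668 and 698 on normal diet) and H2-D1 (925 against 759, 652 and 659 on normal diet) did not pass the fold threshold. In the list of class II and costimulation genes, 2 of 18 rose, a share of 11.1% near the 9.33% of all genes tested. Tnfsf9, a TNF family ligand of T cells, had 432 in the CPZ library against 31.9, 48.97 and 61.02 on normal diet. Cd274, the checkpoint ligand PD-L1, had 922 in the CPZ library against 232, 187 and 194 on normal diet. Cd74, the invariant chain, had 563 in the CPZ library against 412, 515 and 467 on normal diet, and H2-Aa, H2-Ab1 and H2-Eb1, which encode class II chains and were chosen after their values were seen, had log2 folds of 0.25, 0.62 and 0.24. None of these 4 was called.

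Among 20 tested cytokines 9 rose (6 of 17 with a normal-diet mean of at least 10), and none fell. Il12b, the shared subunit of interleukins 12 and 23, had 268 normalised reads in the CPZ library against 3.55, 8.16 and 5.38 on normal diet, and Il23a, its partner in interleukin 23, had 38.1 against 1.18, 2.33 and 0.9 on normal diet. Il1rn, the interleukin 1 receptor antagonist, had 358 in the CPZ library against 4.73, 9.33 and 12.6 on normal diet (log2 fold 5.27 ± 0.52 SE, adjusted p = 4.7e-05, limma), and Il1b itself had 755 against 309.6, 333 and 272 on normal diet. The antagonist thus had the larger fold of the pair, but Il1rn, like Il12b and Il23a, passed the filter only through the CPZ library. Osm, oncostatin M, rose by a log2 fold of 1.08, though not without normal-diet replicate 2, and Tnf, with 899 in the CPZ library against 642, 588 and 459 on normal diet, stayed under the fold threshold. Il16, a chemoattractant cytokine, had 425 in the CPZ library against 747, 684 and 669 on normal diet and was not called.

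Chemokine ligands were called higher in 9 of 18 tested genes (6 of 14 with a normal-diet mean of at least 10). Cxcl10 and Cxcl9, ligands of Cxcr3 that interferon induces, had 427 and 86.3 normalised reads in the CPZ library against 71.1 ± 8.34 and 5.73 ± 2.86 on normal diet (mean ± SD, n = 3). Cxcl2 and Cxcl1, which draw neutrophils, rose with log2 folds of 1.98 and 3.19, as did Ccl5, Cxcl14, Cxcl12 and Cxcl16 (3.84, 3.84, 2.64 and 1.27). Of the ligands with most reads, Ccl6 rose (624 in the CPZ library against 316, 317 and 258 on normal diet, though not without normal-diet replicate 3) and Ccl9 did not pass (551 against 358, 422 and 349 on normal diet). Cxcr4, the receptor of Cxcl12, was the 1 chemokine receptor of 10 that rose, with 701 in the CPZ library against 43.7, 53.6 and 83.5 on normal diet, and Ccr3 the 1 that fell, with 8.46 against 26, 45.5 and 52.95 on normal diet. Ccr2, which marks blood monocytes, had 66.8 in the CPZ library against 83.9, 145 and 103 on normal diet and was not called. Of chemokine receptors tested 10% were called higher and 10% lower, beside 9.33% and 2.95% of all genes tested. Without normal-diet replicate 1, 2 receptors were called higher and 2 lower.

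Of 25 genes in the NF-kB feedback list 7 rose. Ptgs2, the inducible cyclooxygenase, stood out with 1129.6 normalised reads in the CPZ library against 63.8, 59.5 and 53.9 on normal diet (log2 fold 4.24 ± 0.19 SE, adjusted p = 3.3e-07, limma). Tnfaip2, Pim1, Bcl3 and Gadd45b rose with log2 folds between 1.61 and 1.80, while Tnfaip3, the ubiquitin-editing brake on NF-kB, had 2449 in the CPZ library against 2011, 1719.8 and 1785 on normal diet and was not called. Bcl2a1d and Bcl2a1a rose too, but they are near copies of each other. The prostaglandin receptors moved apart: Ptger4, the EP4 receptor, had 742 in the CPZ library against 87.5, 60.6 and 123 on normal diet, and Ptger3, the EP3 receptor, had 9.31 against 74.5, 65.3 and 62.8 on normal diet. Ptgs1, the constitutive cyclooxygenase, had 1079.7 in the CPZ library against 1483, 1566 and 1293 on normal diet and was not called, and Cysltr1, a leukotriene receptor, fell (log2 fold -1.29).

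Immediate early genes, which respond to cell handling as well as to signals, rose in 5 of 25, namely Nr4a3, Nr4a2, Maff, Dusp2 and Fosl2. Nr4a3, an orphan nuclear receptor, had 514 normalised reads in the CPZ library against 42.5, 30.3 and 38.6 on normal diet. Those with most reads, Jun and Egr1, had 2091 and 2053 in the CPZ library against 2718 ± 346 and 2379 ± 328 on normal diet (mean ± SD, n = 3) and were not called. In the p53 list 3 of 23 genes rose, Plk2, Pmaip1 and Cdkn1a, a share of 13% near the 9.33% of all genes tested. Cdkn1a, the cyclin-dependent kinase inhibitor p21, had 835 in the CPZ library against 294, 265 and 365 on normal diet.

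Receptors for debris rose in 10 of 30 tested genes (6 of 24 with a normal-diet mean of at least 10) and fell in 1. Axl, a receptor for phosphatidylserine bridged by Gas6, had 1818 normalised reads in the CPZ library against 208, 209.9 and 208 on normal diet, where the 3 values hardly differed, and its relative Mertk had 1488 against 2010.1, 2058 and 1811 on normal diet and was not called. Clec7a, the beta-glucan receptor dectin-1, had 1125 in the CPZ library against 147, 125 and 106 on normal diet. The scavenger receptors Colec12 (288 in the CPZ library against 4.73, 4.66 and 8.97 on normal diet) and Olr1 (168 against 8.27, 7 and 8.08 on normal diet) rose, and so did Treml2, Cd300lf, Cd300lb and Trem1, with log2 folds of 3.20, 4.00, 4.14 and 4.77. Itgav, the integrin chain that pairs with Itgb5 to take up apoptotic cells, fell, with 491 in the CPZ library against 1045, 1066 and 878 on normal diet, but was not called without normal-diet replicate 1 or 2, while Lrp1 had 2891 against 4519, 4296 and 3296 on normal diet and was not called. Complement genes rose in 5 of 17, of which 2 of 14 had a normal-diet mean of at least 10. Cfb, factor B of the alternative pathway, had 89 reads in the CPZ library against 2 on normal diet, a ratio of 106 (95% interval 28.5 to 889.8), and C3, on which all pathways converge, had 248 normalised reads in the CPZ library against 9.45, 5.83 and 10.8 on normal diet. C2, C4b and Itgax, a chain of a complement receptor, rose as well (the first pair with log2 folds 4.80 and 2.39), and the C1q chains C1qb and C1qc had log2 folds of -0.24 and -0.28 and were not called. Fcgr4 was the 1 Fc receptor of 7 that rose (206 in the CPZ library against 56.7, 53.6 and 62.8 on normal diet).

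Inhibitory and paired receptors were called higher in 10 of 30 tested genes (8 of 28 with a normal-diet mean of at least 10) and lower in 2. Pdcd1, the checkpoint receptor PD-1, had 415 normalised reads in the CPZ library against 35.5, 30.3 and 16.1 on normal diet, in the same library in which its ligand Cd274 rose. Cd22, a sialic acid-binding receptor that restrains phagocytosis, had 579.6 in the CPZ library against 119, 76.95 and 87.95 on normal diet, and Cd72, Cd244a and Klrb1b rose with log2 folds of 3.06, 3.27 and 5.54. Lilrb4a (2.59) has a near-identical neighbour. The Siglecs went both ways: Siglec1 rose (478 in the CPZ library against 106, 136 and 110.4 on normal diet), whereas Siglece (165 against 379, 444 and 428 on normal diet) and Siglecg (22 against 49.6, 79.3 and 84.4 on normal diet) fell.

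Other surface lists held calls in both directions. Among 17 leukocyte integrins and their ligands Itgal, Itgax, Itga4, Itga5 and Vcam1 rose, and Itgae, Itga9 and Itgav fell. Itgal, the alpha chain of LFA-1, had 240.3 normalised reads in the CPZ library against 3.55, 8.16 and 12.6 on normal diet, and Itga9 had 220.0 against 589.7, 699.6 and 600.4 on normal diet. Itgal passed the filter only through the CPZ library. Of this list, 4 of 15 genes with a normal-diet mean of at least 10 rose. Without normal-diet replicate 2, 1 integrin was called lower, and Itgae and Itgav were not. Of 24 Toll-like receptors and adaptors 2 fell and none rose. Tlr5, which senses flagellin, had 60.9 in the CPZ library against 304, 325 and 309 on normal diet (log2 fold -2.34 ± 0.14 SE, adjusted p = 2.3e-06, limma), Tirap fell by 1.02 on the log2 scale, though not without normal-diet replicate 1, and Tlr2 lay just under the fold threshold with 1751 in the CPZ library against 995, 912 and 909 on normal diet. Semaphorins, plexins and other guidance genes rose in 7 of 21 (4 of 18 with a normal-diet mean of at least 10). Of this list 5 genes fell, among them Sema4b (76.2 in the CPZ library against 363, 421 and 451 on normal diet) and Plxna4 (294 against 1027, 914 and 806 on normal diet), while Sema7a and Plxnc1, a ligand and its receptor, rose with log2 folds of 2.97 and 2.90.

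In the cytokine receptor list 4 of 29 genes rose, Il3ra, Il2rg, Il27ra and Il1r1, and 3 fell, Il7r, Lifr and Tnfrsf17, the last not called without normal-diet replicate 2. Of this list 13.8% were called higher and 10.3% lower, beside 9.33% and 2.95% of all genes tested. With a normal-diet mean of at least 10, 3 of 28 cytokine receptor genes rose. Il2rg, the common gamma chain, had 224 normalised reads in the CPZ library against 21.3, 37.3 and 33.2 on normal diet, and Lifr, the receptor of Lif, had 469 against 1065, 997 and 978 on normal diet, so that the ligand Lif was higher and its receptor lower after CPZ. Of 13 purinergic genes the adenosine receptor Adora1 rose (296 in the CPZ library against 20.1, 27.98 and 26.9 on normal diet), with P2ry2 and Enpp1, and P2rx1 fell. Of 11 purinergic genes with a normal-diet mean of at least 10, 2 rose. In the channel list Clic4 and Kcnab2 rose and Kcnk12 fell among 18 (4 rose without normal-diet replicate 1), and in the TGF-beta list Bambi, a decoy receptor, was the 1 gene of 23 called, with 135 in the CPZ library against 50.8, 22.1 and 34.1 on normal diet. Tgfbr1 had 2329 in the CPZ library against 3647, 3483 and 2926 on normal diet and was not called. The share of the channel list called higher, 11.1%, lay near the 9.33% of all genes tested.

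Genes of the cell cycle were called higher in each of 5 lists, and the difference between the lists was not tested. Of 36 tested genes of the kinetochore, spindle and cytokinesis 26 were called higher (13 of 23 with a normal-diet mean of at least 10). The counts were 20 of 40 (12 of 31) for cyclins, kinases and inhibitors, 8 of 28 (6 of 26) for nucleotide synthesis, 9 of 43 (6 of 39) for replication and 4 of 16 (1 of 13) for homologous recombination. None of these lists held a gene called lower. Of all genes tested 9.33% were called higher, and 7.06% of those with a normal-diet mean of at least 10. The 1 of 13 for homologous recombination lay near that second share. Without normal-diet replicate 2 the recombination count was 2. Mki67, the antigen Ki-67 of cycling cells, had 272 normalised reads in the CPZ library against 48.5, 24.5 and 37.7 on normal diet (log2 fold 2.90 ± 0.36 SE, adjusted p = 1.9e-04, limma), and Cdk1, the mitotic kinase, had 98.2 against 14.2, 18.7 and 14.4 on normal diet. Racgap1, which builds the cleavage furrow, had 109 in the CPZ library against 13, 11.7 and 13.5 on normal diet, and Tpx2 and Kif11, of the mitotic spindle, rose with log2 folds of 3.21 and 3.04. Rrm2, the subunit of ribonucleotide reductase made in S phase, had 55.9 in the CPZ library against 5.91, 2.33 and 5.38 on normal diet. Timeless, Uhrf1 and Mcm5 of the replication fork rose with log2 folds of 3.00, 2.87 and 1.54, and Dna2, a nuclease of DNA ends, had 213 in the CPZ library against 33.1, 31.5 and 29.6 on normal diet. The G1 genes with most reads, Cdk6 and Ccnd1, had 649 and 597 in the CPZ library against 1028 ± 137 and 721 ± 75.8 on normal diet (mean ± SD, n = 3) and were not called.

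Late cell-cycle genes are controlled through a promoter element, TTTGAA, that the DREAM and MuvB complexes bind, together with CCAAT boxes bound by NF-Y. TTTGAA, on either strand (TTCAAA on the other), was in 37 of 54 kinetochore, spindle and cytokinesis promoters (68.5%) and in 14 of 37 of the cyclin list (37.8%). It was in 18.1% of all 27025 promoters and in 11.4% of the 9114 promoters of genes tested. It was in 8 of 41 replication and 2 of 25 nucleotide synthesis promoters. CCAAT, or ATTGG on the other strand, was in 66.7%, 62.2%, 61% and 32% of these 4 lists in that order. It was in 37.9% of all promoters and 39% of those of genes tested. Within the kinetochore list TTTGAA was in 18 of 23 promoters of genes called higher, 6 of 9 of those not called and 13 of 22 of those not tested. The promoters of Cdk1, of Ccnb2, cyclin B2, and of Top2a, topoisomerase II, chosen after their values were seen, are printed with both motifs in capitals. Ccnb2 had 52.5 normalised reads in the CPZ library against 4.73, 10.5 and 6.28 on normal diet and Top2a had 146 against 22.4, 22.1 and 19.7 on normal diet. The 3 sequences lie at chr10:69352863-69353162 (minus strand) for Cdk1, chr9:70421505-70421804 (minus strand) for Ccnb2 and chr11:99024140-99024439 (minus strand) for Top2a, each given on the strand of its gene.
Cdk1: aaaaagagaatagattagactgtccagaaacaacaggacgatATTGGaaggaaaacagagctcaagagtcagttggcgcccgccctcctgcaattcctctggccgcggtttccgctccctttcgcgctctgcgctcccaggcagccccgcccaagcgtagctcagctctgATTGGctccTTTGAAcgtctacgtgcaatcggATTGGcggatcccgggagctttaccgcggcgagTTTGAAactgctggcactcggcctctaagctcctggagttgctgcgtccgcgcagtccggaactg
Ccnb2: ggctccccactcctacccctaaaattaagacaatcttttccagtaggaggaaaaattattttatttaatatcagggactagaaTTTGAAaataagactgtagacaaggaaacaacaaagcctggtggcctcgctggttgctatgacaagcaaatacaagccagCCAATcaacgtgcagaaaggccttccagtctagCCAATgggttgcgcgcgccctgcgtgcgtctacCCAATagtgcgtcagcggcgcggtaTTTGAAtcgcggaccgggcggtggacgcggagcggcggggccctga
Top2a: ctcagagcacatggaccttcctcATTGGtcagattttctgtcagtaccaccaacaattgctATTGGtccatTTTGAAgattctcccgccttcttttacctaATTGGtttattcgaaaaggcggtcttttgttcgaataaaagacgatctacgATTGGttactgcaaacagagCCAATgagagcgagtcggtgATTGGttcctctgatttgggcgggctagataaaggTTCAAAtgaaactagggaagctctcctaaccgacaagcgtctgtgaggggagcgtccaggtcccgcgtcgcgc

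Glycolysis and glucose transport rose in 11 of 34 tested genes (10 of 32 with a normal-diet mean of at least 10), and none fell. Slc2a6, a glucose transporter of lysosomes, had 460.3 normalised reads in the CPZ library against 11.8, 13.99 and 20.6 on normal diet. Egln3, a prolyl hydroxylase induced by hypoxia-inducible factor, had 355 in the CPZ library against 15.4, 9.33 and 11.7 on normal diet, and Slc2a1, the glucose transporter GLUT1, had 854 against 292, 283 and 322 on normal diet. Slc16a3, which exports lactate, and the enzymes Aldoc and Eno2 rose with log2 folds of 1.32, 1.87 and 2.76, and Pgk1 (1.62), not called without normal-diet replicate 2, has processed copies in the genome. Slc2a5, the fructose transporter typical of microglia, had 479.8 in the CPZ library against 876, 901 and 786 on normal diet and was not called. In the tricarboxylic acid cycle list the 1 gene of 25 called was Acod1, which diverts aconitate to itaconate. Acod1 had 105 in the CPZ library against 1.18, 2.33 and 1.79 on normal diet, and passed the filter only through the CPZ library. No gene of this list with a normal-diet mean of at least 10 was called.

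Folds moved with transcript length and with level, and this bears on the lists of short mitochondrial genes. Among genes with a normal-diet mean of at least 10, the median log2 fold was 0.57 for 645 genes with a transcript under 1000 bases and -0.25 for 1322 genes of 6000 bases and over. It was 0.53 for 1449 genes with a normal-diet mean of 10 to 30 and -0.28 for 437 genes of 1000 and over, none of which was called higher. The 65 tested subunits of oxidative phosphorylation have a median transcript of 745 bases. Of these 65, 19 were called higher (18 of 62 with a normal-diet mean of at least 10) and none lower. A fold above 0 was found for 64 of the 65 (median 0.80). With each library centred within 6 classes of transcript length, 1 was called higher and the median was 0.29, and after quantile normalisation 7 were called higher. Ndufa1, a subunit of complex I, had 45.7 normalised reads in the CPZ library against 5.91, 11.7 and 13.5 on normal diet, Atp5e, of the ATP synthase, had 82.1 against 22.4, 27.98 and 37.7 on normal diet, and Atp5a1, a larger subunit of that enzyme with more reads, had 633 against 513, 525 and 528 on normal diet and was not called. In the mitochondrial ribosome list 7 of 69 genes were called higher, a share near the 9.33% of all genes tested. None of them was called higher after centring by length, 1 was after quantile normalisation and 3 were without normal-diet replicate 2. Of 38 proteasome genes 1 was called, Psmb6, with 229 in the CPZ library against 88.6, 80.5 and 109 on normal diet, while 2 were called without normal-diet replicate 1 and 3 without replicate 3. The part of length and level in the folds of other lists was not tested gene by gene.

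**Figure D3:**
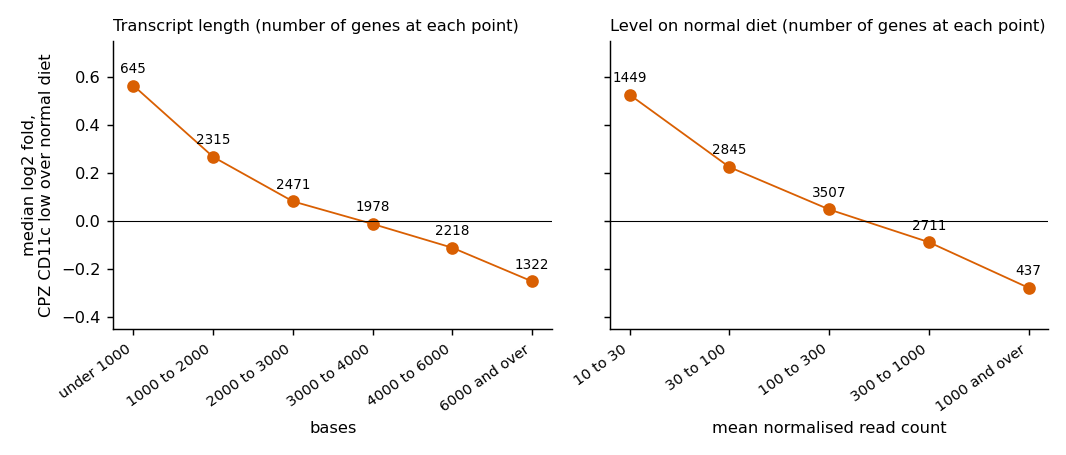
Median log2 fold of PRMT1FL CPZ CD11c low over PRMT1FL normal diet (vertical axis) in classes of transcript length in bases (left) and of mean normalised read count on normal diet (right), for genes with a normal-diet mean of at least 10, with the number of genes above each point. The median runs from 0.57 under 1000 bases to -0.25 at 6000 bases and over, and from 0.53 at a mean of 10 to 30 to -0.28 at 1000 and over.

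Copper and iron genes were called higher in 11.8% and 10% of those tested, and NRF2 targets and ATF4 and amino acid genes in 22.7% and 21.9%, beside 9.33% of all genes. Cuprizone binds copper, and of 17 copper genes and metallothioneins Mt2 (39.8 normalised reads in the CPZ library against 2.36, 7 and 11.7 on normal diet) and Commd1 (90.5 against 37.8, 32.6 and 40.4 on normal diet) were called higher, and 4 were without normal-diet replicate 1. Mt2 passed the filter only through the CPZ library. Among copper genes with a normal-diet mean of at least 10, 1 of 16 was called higher, beside 7.06% of all such genes. After quantile normalisation, and after centring by length, 1 copper gene was called higher. The copper importer Slc31a1 had 438 in the CPZ library against 295, 275 and 314 on normal diet and was not called. In the iron list 2 of 20 rose, Slc11a2, which carries ferrous iron, and Tfrc, the transferrin receptor (log2 folds 1.21 and 1.05), while Ncoa4, the ferritin autophagy receptor, fell (15.2 in the CPZ library against 44.9, 46.6 and 41.3 on normal diet) and the iron exporter Slc40a1 had 388 against 767, 729.9 and 718 on normal diet, a log2 fold of -0.93 that did not pass. Without normal-diet replicate 2, 1 iron gene was called higher, and Tfrc was not. NRF2 targets rose in 5 of 22, Slc7a11, Prdx6, Srxn1, Txn1 and Gsr, of which Txn1 was not called without normal-diet replicate 1 and Gsr not without replicate 2, while Hmox1 had 524 in the CPZ library against 502, 567 and 587 on normal diet. ATF4 and amino acid genes rose in 7 of 32, of which Psat1, of serine synthesis, had 595 in the CPZ library against 100.5, 103 and 123 on normal diet (log2 fold 2.45 ± 0.18 SE, adjusted p = 5.4e-06, limma) and Asns, asparagine synthetase, 64.3 against 10.6, 13.99 and 17.1 on normal diet. Among ATF4 and amino acid genes with a normal-diet mean of at least 10, 6 of 31 rose. Atf4 itself had 671 in the CPZ library against 744, 670.4 and 678 on normal diet. Cybb, the catalytic subunit of the phagocyte NADPH oxidase, was the 1 gene called of 8 in its list, with 699 in the CPZ library against 163, 188 and 164 on normal diet.

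Most lysosomal genes did not pass the test. Of 47 tested hydrolases, membrane proteins and pump subunits, Gpnmb was the 1 gene called, and 2 were called without normal-diet replicate 1. Gpnmb passed the filter only through the CPZ library. With all libraries, no gene of this list with a normal-diet mean of at least 10 was called. Among 15 cathepsins and cystatins Ctse, Cst7 and Cstb rose, and Ctse too passed the filter only through the CPZ library. Cst7, the inhibitor cystatin F, had 528 normalised reads in the CPZ library against 33.1, 25.6 and 26.9 on normal diet, and Ctse, cathepsin E, had 139.6 against 7.09, 2.33 and 3.59 on normal diet. Ctsd, cathepsin D, had 1235 in the CPZ library against 1718, 1663 and 1332 on normal diet and was not called. Of 32 genes of the unfolded protein response Sdf2l1 was the 1 called, with a log2 fold of 1.02, though not without normal-diet replicate 2 or 3, and none of 27 acetyltransferases and deacetylases was.

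The genes that fell were fewer, and 304 of the 336 stood in none of the lists. Unc79, part of a sodium leak channel, had 0.85 normalised reads in the CPZ library against 30.7, 36.1 and 26.9 on normal diet, and Adcy8, an adenylyl cyclase, had 11 against 116, 89.8 and 88.8 on normal diet. Col6a3, a collagen VI chain, had 48.2 in the CPZ library against 324, 349 and 322 on normal diet (log2 fold -2.75 ± 0.15 SE, adjusted p = 1.2e-06, limma), and Bank1, a scaffold best known from B cells, had 41.5 against 260.0, 287 and 239 on normal diet. Tet1, which oxidises methylcytosine, had 33.9 in the CPZ library against 179.6, 170.2 and 142 on normal diet. These 5 genes lay below every normal-diet value with room to spare. Capn11, a calpain, had 0 in the CPZ library against 14.2, 103 and 6.28 on normal diet, but replicate 2 alone carried most of its reads. Among the 20 genes with most reads in the CPZ library, Soga1, Zfhx3 and Tanc2 had the largest negative folds (-0.91, -0.92 and -0.68) and were not called. Of 3 GIMAP GTPases tested, Gimap6 (72.8 in the CPZ library against 204, 175 and 200.1 on normal diet) and Gimap9 fell.

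Zinc finger genes of the Zfp series, a family chosen after its values were seen, made up a large share of the genes that fell. Of 327 tested genes with a symbol of Zfp and a number, 64 were called lower (19.6%) and 1 higher, against 2.46% lower among all other genes tested. Their median log2 fold was -0.60, against 0.09 for the other genes, and 287 of the 327 were below 0. The median Zfp gene had a transcript of 3578 bases and a normal-diet mean of 108, against 2978.5 bases and 137 for the others. Genes of at least 2000 bases with a normal-diet mean of 30 to 300 were also compared. Within these bounds the median log2 fold was -0.70 for 224 Zfp genes and 0.02 for 4146 other genes. The part of length and level was not tested beyond this comparison. The number called lower was 79 with TMM and 82 with median of ratios, which shift all genes nearly alike, 138 after quantile normalisation and 65 after centring by length. The called members were most numerous on chromosome 13, with 16 of 33 tested there, chromosome 7, with 14 of 83, and chromosome 17, with 10 of 41. Many of these genes lie in clusters of related copies and encode KRAB zinc finger repressors, so reads may be shared between them.

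**Figure D4:**
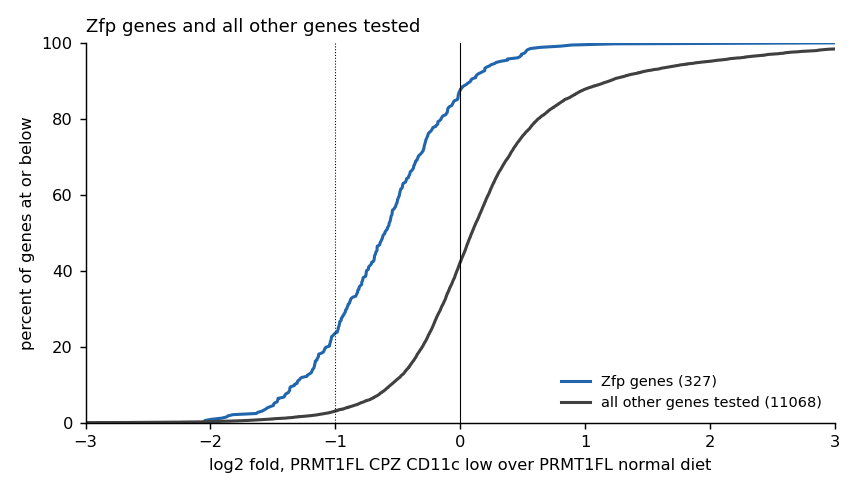
Percent of genes at or below a given log2 fold of PRMT1FL CPZ CD11c low over PRMT1FL normal diet, for 327 Zfp genes (blue) and 11068 other genes tested (grey). The dotted line marks a log2 fold of -1. The blue curve lies left of the grey one, with medians of -0.60 and 0.09.

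Markers of several other brain cells rose in the CPZ library, and their part in the results was not tested. Of 21 tested endothelial markers 16 rose and 1 fell (9 of 14 with a normal-diet mean of at least 10 rose), and the 27 listed markers summed to 3860 normalised reads in the CPZ library against 1815 to 2085 on normal diet, with none at 0 in the CPZ library. Tie1 and Tek, endothelial receptor kinases, had 44 and 42.3 in the CPZ library against 2.97 ± 2.17 and 4.83 ± 1.37 on normal diet (mean ± SD, n = 3), whereas Pecam1, a junction protein, fell, with 93.1 in the CPZ library against 209, 225 and 236 on normal diet. All 8 tested pericyte and smooth muscle markers rose, 6 of them with a normal-diet mean of at least 10, and the 14 listed, of which Cnn1 had 0 reads in the CPZ library, summed to 2265 there, of which Cspg4 was 1193, against 183 to 229 on normal diet. Pdgfrb, the pericyte PDGF receptor, had 162 in the CPZ library against 23.6, 26.8 and 23.3 on normal diet, and Vtn, vitronectin, had 278 against 43.7, 55.97 and 46.7 on normal diet. Flt1, Igfbp7 and Cspg4, named above, were read in the same library as these markers, and which cells they came from was not tested. The study's single-cell data place Cspg4 among the genes enriched in a phagocytic microglia cluster.

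Astrocyte markers rose in 19 of 24 (16 of 19 with a normal-diet mean of at least 10), and the 27 listed summed to 5411 in the CPZ library against 3322 to 3583 on normal diet. Atp1b2, a subunit of the sodium pump, had 374 in the CPZ library against 56.7, 141 and 109 on normal diet, while Glul and Slc1a3 had log2 folds of -0.30 and -0.20 and were not called. All 20 tested oligodendrocyte markers had a fold above 0, with a median log2 fold of 1.27 (0.78 after quantile normalisation), but Apod was the 1 called, and the 23 listed summed to 3375 in the CPZ library against 2020 to 2656 on normal diet. The count of this list was 4 without normal-diet replicate 1, 4 without replicate 2 and 10 without replicate 3. Of 6 tested neuron markers Camk2a fell and none rose, and their 25 listed genes summed to 257 in the CPZ library, inside the range of 173 to 430.3 on normal diet. Without normal-diet replicate 1, 2 neuron markers were called lower.

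Blood and border cell markers were mixed. Of 20 tested monocyte and border macrophage markers 5 rose, Fn1, Lgals3, Vim, Folr2 and Siglec1, the first pair of which also stood in the matrix list, and the 30 listed summed to 6633 in the CPZ library, of which Fn1 was 1689, against 4046 to 4547 on normal diet, of which Fn1 was 88.6, 30.3 and 30.5. Among the tested members of this list with a normal-diet mean of at least 10, 4 of 18 rose. Mrc1, the mannose receptor of border macrophages, had 189 in the CPZ library against 196, 295 and 296 on normal diet. Of 12 tested neutrophil markers 6 rose, 3 of 8 with a normal-diet mean of at least 10. S100a9 had 159.9 in the CPZ library against 105, 64.1 and 57.4 on normal diet, and the 20 listed summed to 2703 in the CPZ library against 1882 to 2226 on normal diet. Without normal-diet replicate 1, 10 of them were called higher, and S100a9 was not called without replicate 3. Few lymphoid markers were tested: the 19 T and NK cell genes summed to 177 in the CPZ library against 246 to 295 on normal diet, with 11 of them at 0 in the CPZ library and 12 at 0 in all 3 normal-diet libraries. Cd3e and Cd8a were at 0 in all 4 libraries. Dendritic cell markers summed to 2696 in the CPZ library against 3140.1 to 3483 on normal diet, with Klrd1 called lower but not without normal-diet replicate 2 or 3, and none of 8 erythroid genes, which summed to 47.4 in the CPZ library against 2.36 to 15.2 on normal diet, was tested. In the remaining lists Igf2 (fibroblast), Ebf1 (B cell) and Ttr (choroid plexus) rose, each 1 of 2 tested, and Ttr was not called without normal-diet replicate 1 or 3. Ebf1 passed the filter only through the CPZ library. Of 6 tested progenitor markers of oligodendrocytes Cspg4 and Ptprz1 rose, and 4 did without normal-diet replicate 2 and 6 without replicate 3. The 14 listed summed to 1487 in the CPZ library, most of it Cspg4, against 63.8 to 136 on normal diet.

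**Figure D5:**
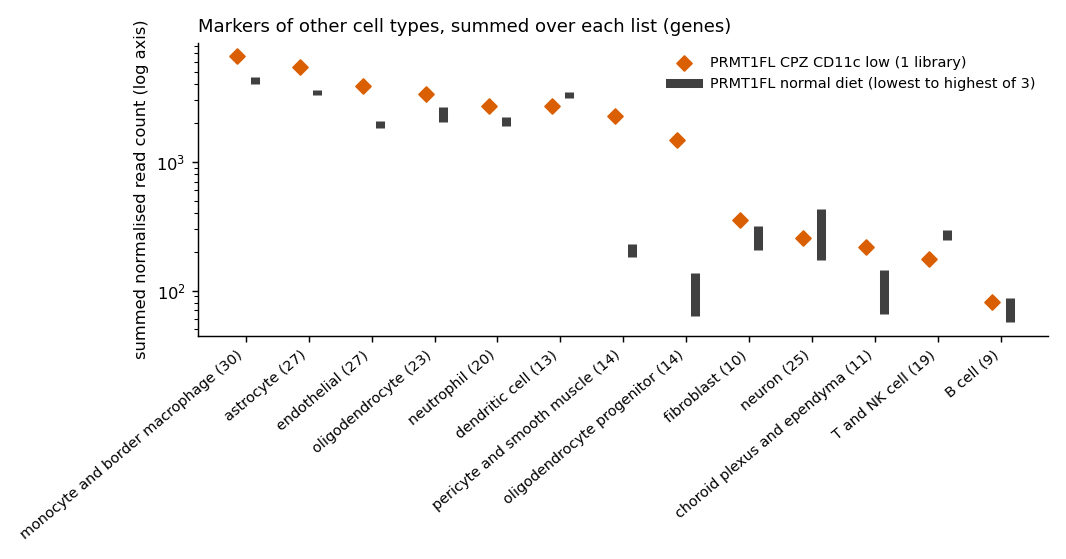
Summed normalised read count (vertical log axis) of the listed markers of 13 other cell types, with the number of genes in brackets, in the PRMT1FL CPZ CD11c low library (orange diamond, left) and over the 3 PRMT1FL normal diet libraries (grey bar, lowest to highest, right). The diamond lies above the bar for 9 of the lists, among them pericyte and smooth muscle (2265 against 183 to 229), oligodendrocyte progenitor and oligodendrocyte markers, inside it for neuron and B cell markers and below it for dendritic cell and T and NK cell markers.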

How the data were processed

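RNA-seq libraries were made from sorted microglia, and 4 of the 8 libraries of the series were compared: 1 PRMT1FL CPZ CD11c low library and 3 PRMT1FL normal diet libraries. Libraries were prepared by the authors from total RNA with random and oligo dT primers and a strand-marking dUTP step. Reads were trimmed, aligned with Bowtie2, stripped of duplicates and counted per gene with HOMER; the strand setting is not given in the sources used here, so overlapping and antisense genes are uncertain. The methods name a human build, but the coordinates of the table match mouse GRCm38. The deposited values are a signal, the authors' reads per gene scaled by 1 factor per library. Whole reads were recovered from them, every value being whole within 0.1 of a read. They have no unit of length, so an order of genes by reads is not an order by transcripts.

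Values were tested as log2(value + 1) with limma 3.58.1 in R 4.3.3 (moderated with a mean-variance trend), restricted to genes averaging 10 or more over the 4 libraries, with Benjamini-Hochberg adjustment over 11395 genes. Count tests on the recovered reads (edgeR 4.0.16 and DESeq2 1.42.0) were alternatives, with other scalings, pseudocounts and filters, and each normal-diet library left out in turn. The code was tested on simulated data. Ratios of genes with 1 to 3 normal-diet reads have exact 95% intervals for counting error. Promoters are from RefSeq, and 1351 of 1737 listed genes had one.

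Genes named in the text were the 25 largest called folds in each direction, the 20 with most reads in the CPZ library, a few check genes and, per list, all tested members up to 12 or else the 8 called members with the largest folds, the 6 with the highest mean and any called against the majority. Others are said to be chosen after their values were seen. A few genes that the rule names are not reported here. The members and lists were chosen with earlier results of these data known. The table also holds the authors' own fold changes and p-values for this comparison, which were not used.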

Additional observations from a re-analysis of the deposited data

How the results depend on the processing

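Against 1063 genes called higher and 336 lower, the higher count was 680 with a mean of at least 30 and 234 when limma tested against a log2 fold of 1 (treat). The lower count was 800 after quantile normalisation and 37 with treat. With no filter on low values 757 genes were called higher, 330 of them among the 1063, and 178 lower, 149 of them among the 336, and 92 of 218 named calls were lost. Higher calls made up 75.98% of all calls, 49.65% after quantile normalisation and 86.35% with treat. Quantile normalisation moved the median log2 fold of all genes to -0.06, from 0.08, and fewer genes rose with it (789). The other settings gave 759 to 1176 genes called higher and 289 to 436 lower, DESeq2 giving 759 and 332 and edgeR 1176 and 434. With 1 normal-diet library left out, 922 to 1201 genes were called higher and 269 to 404 lower.

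Of 218 named genes that were called, none reversed, 200 kept the call without each normal-diet library in turn, and 116 kept it under every setting but treat. The call was lost without normal-diet replicate 1 for Abca9, Itgav, Tirap, Ttr and Txn1, without replicate 2 for Abca9, Batf, Gsr, H2-M3, Itgae, Itgav, Klrd1, Osm, Pgk1, Sdf2l1, Serpinf1, Tfrc and Tnfrsf17, and without replicate 3 for Ccl6, Klrd1, S100a9, Sdf2l1 and Ttr. The folds that changed sign were of genes not called. After quantile normalisation the log2 fold was 0.15 for Cebpa, 0.05 for Cx3cr1, 0.08 for Egr1, 0.07 for Grn, 0.00 for Irf5, 0.05 for Itgb5 and 0.09 for Lrp1. Centred within classes of transcript length it was -0.01 for Cd74, -0.04 for H2-Aa, -0.05 for H2-Eb1 and -0.16 for Lgals9. For Cebpa, leaving out 1 normal-diet library gave -0.15 to 0.04. The cause of these changes was not tested.

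After quantile normalisation the members called higher were 4 guidance genes, 2 interferon-inducible GTPases, 5 replication genes, 2 recombination genes and 2 NRF2 targets, and with DESeq2 they were 4, 2, 5, 2 and 2 in the same order, with 7 oxidative phosphorylation and 2 mitochondrial ribosome genes. No paired analysis was possible because the CPZ group has 1 library. That library has no replicate check, and a gene with few reads on normal diet is limited by depth.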
